A study of Mus musculus with 12 samples.

Results

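The 8 genes described here, of extracellular purine signalling and ADP-ribosylation, were followed in cultured mouse CD4 T cells that differed in retinoic acid (RA) and in the genotype label of the RA receptor RARα. They are Nt5e, Entpd1, Adora2a, Ada, P2rx7, P2rx4, Art2b and Cd38, matched by name, and all 8 were found among the 52635 genes of the deposited table. They were chosen with earlier results of these data known, so the shares over all genes given below are for description only. The cells were naive CD4 T cells from C57BL/6 mice, at a purity above 95% per the labels, activated for 24 h through CD3 and CD28. Every culture, controls included, held medium with charcoal-stripped serum, IL-6, IL-1β, IL-21, IL-23, TNFα, TGF-β1 and blocking antibodies to IFNγ and IL-4. Cells labelled WT, RARα KO and RARα TG were each cultured with no RA or with 10 nM RA, with 2 libraries in each of the 6 groups. The labels describe neither the KO allele nor the promoter and form of the transgene, nor do they say that the 2 libraries of a group are from different animals. Every p-value therefore reflects the spread between these libraries, which may be technical in WT and KO. The 2 TG libraries at each dose differed in sex by X- and Y-linked genes, so their spread is not technical alone.

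Cells release ATP when they are activated, stressed or damaged. The membrane enzyme CD39, encoded by Entpd1, degrades ATP and ADP to AMP, and CD73, encoded by Nt5e, converts AMP to adenosine, which restrains T cells through the receptor encoded by Adora2a. Adenosine deaminase, encoded by Ada, removes adenosine by turning it into inosine. Extracellular ATP also opens the ion channels P2X4 and P2X7, encoded by P2rx4 and P2rx7. On mouse T cells the ectoenzyme ART2.2, encoded by Art2b, uses extracellular NAD to ADP-ribosylate P2X7, which can open the channel without ATP, and CD38 consumes the same NAD. CD39 and CD73 are known on regulatory T cells, and RA is a vitamin A metabolite that activates nuclear receptors of the RAR family.

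With RA, Nt5e and Art2b passed the test as higher and Entpd1 as lower in WT cells. In TG cells these 3 passed again, and Cd38 and P2rx4 passed as higher and Ada as lower. Cd38 and P2rx4 were also higher with RA in WT (2.6-fold and 1.23-fold) without passing. The RA differences of TG and WT were compared as well, and 0 of 8 passed. In the WT comparison 3 of the 8 genes passed the test, where 10.1% of the 11922 genes tested passed, 2 of them higher (background 6.67%) and 1 lower (3.47%). In TG 6 of 8 passed against 39.1% of all genes tested, 4 higher (background 19.7%) and 2 lower (19.4%), so being called there is common. In the libraries labelled KO 0 of 8 passed, against 0.143% of all genes (17 genes by limma on log2(FPKM + 1), 20 by limma voom on reads, and 1280 at an unadjusted p under 0.05). The test was limma on log2(FPKM + 1), where FPKM is reads scaled by exon length and by library depth, with p-values adjusted over all genes tested and a threshold of 0.05, and each difference below is on that log2 scale with its standard error. That scale understates the change of genes under about 1 FPKM, so FPKM ratios and reads are given for those. The members' median difference with RA was 0.17 in WT, 0.19 in KO and 0.39 in TG, beside 0.02, 0.01 and -0.02 over all genes tested.

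Between genotype labels fewer members passed. Without RA, Nt5e and Entpd1 were lower in KO than in WT (2 of 8, against 1.74% of all genes in either direction and 0.579% lower), and with RA, Nt5e and Art2b were lower (2 of 8, against 0.881% and 0.411% lower). TG against WT gave 1 of 8 without RA, Nt5e higher (background 4.31%, 2.25% higher), and 2 of 8 with RA, Cd38 higher and Ada lower (background 11.5%, of which 6.84% higher and 4.64% lower). The RA difference itself was tested between genotypes, and 0 of 8 passed for KO minus WT (background 0.00839%) and 0 of 8 for TG minus WT (background 7.48%). Over all genes these interaction tests called 1 and 892 genes by limma, 0 and 887 by voom, with 640 and 2584 at an unadjusted p under 0.05. With replicate number as a block in the limma model, 3 of 8 passed for TG minus WT (Art2b, Cd38 and Entpd1), where 1248 of 11922 genes passed. For KO minus WT it stayed at 0 of 8. The 3 RA comparisons share no library, whereas each KO and TG comparison at 1 dose uses the same WT libraries.

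**Figure D1:**
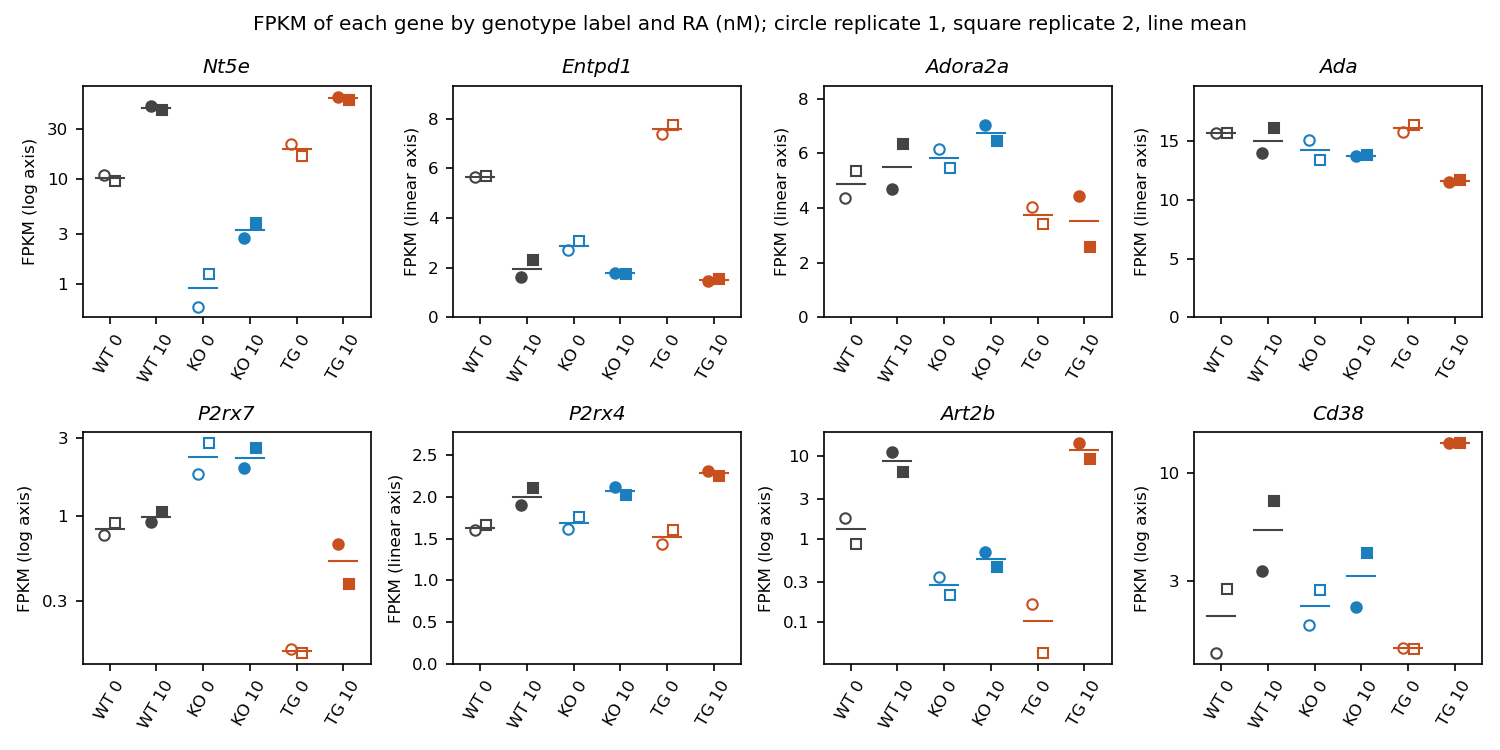
FPKM of the 8 genes in the 12 libraries, 1 panel per gene with its own vertical axis, which is logarithmic for Nt5e, P2rx7, Art2b and Cd38 and linear from 0 for the others. Open symbols are cultures without RA and filled symbols those with 10 nM RA, circles are replicate 1, squares replicate 2 and lines the group means, and Nt5e spans 0.605 to 61.8 FPKM while Ada stays between 11.5 and 16.4.

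The libraries held 16289969 to 25534588 reads as read from the steps of the low values, and all 96 member values were within 0.001 of a whole number of reads. The CD4 T cell markers were all 9 present at 1 FPKM or more in every group, summing to 1088 to 1562 FPKM, and Cd8a and Cd8b1 together summed to 1.55 to 4.18. Rara, which encodes RARα, was at 12.3 to 18.9 FPKM in WT, 16.8 to 19.5 in the libraries labelled KO and 63.3 to 126 in TG, so its RNA was not lower under the KO label. By X- and Y-linked genes all 4 WT libraries were male and all 4 labelled KO were female, so KO against WT and sex cannot be told apart. In TG, replicate 1 was male and replicate 2 female at each dose. Markers of B cells and of MHC class II cells were higher in replicate 2 than in replicate 1 of WT and KO: Cd74 was at 12.7 and 82.7 FPKM in the WT libraries without RA, 12.4 and 84.7 with RA, 13.5 and 37.9 in KO without RA, and 12.8 and 40.5 with RA. In bulk RNA, fewer cells of a type and less RNA per cell cannot be told apart.

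The regions before the start sites of 3 of the genes are shown because RARα, paired with RXR, is known to bind direct repeats of a 6-base element, and these genes had different RA responses. RefSeq start sites on GRCm38.p6 gave 9 windows of 250 bases for 7 of the 8 genes, with 2 windows each for Entpd1 and P2rx7. Elements searched on both strands were AGGTCA, which is in 14% of 32851 such windows, then AGTTCA, which is in 11.8%, then GGGTCA, which is in 11.6%, and last GGTTCA, which is in 8.85%, and 38.6% hold any of these. Matches are in capitals below as read on the gene's strand, where TGACCT is the reverse complement of AGGTCA, as TGAACC is that of GGTTCA. Only bases outside annotated exons are printed, which leaves nothing of the Nt5e and Cd38 windows.
Entpd1 upstream start, chr19:40612234-40612365, + strand: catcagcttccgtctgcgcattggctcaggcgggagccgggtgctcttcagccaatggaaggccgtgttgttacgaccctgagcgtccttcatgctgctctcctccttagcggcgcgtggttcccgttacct
Entpd1 internal start, chr19:40659520-40659769, + strand: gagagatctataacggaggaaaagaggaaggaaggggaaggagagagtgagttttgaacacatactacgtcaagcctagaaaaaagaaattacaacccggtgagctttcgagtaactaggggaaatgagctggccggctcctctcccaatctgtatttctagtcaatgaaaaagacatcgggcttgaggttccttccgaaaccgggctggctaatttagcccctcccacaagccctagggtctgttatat
P2rx4, chr5:122707294-122707543, + strand: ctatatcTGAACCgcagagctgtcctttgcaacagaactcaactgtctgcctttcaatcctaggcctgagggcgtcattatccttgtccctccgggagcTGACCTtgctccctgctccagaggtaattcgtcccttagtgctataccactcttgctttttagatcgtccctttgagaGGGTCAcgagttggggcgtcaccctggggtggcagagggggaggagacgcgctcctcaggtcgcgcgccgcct
Art2b, chr7:101581180-101581411, - strand: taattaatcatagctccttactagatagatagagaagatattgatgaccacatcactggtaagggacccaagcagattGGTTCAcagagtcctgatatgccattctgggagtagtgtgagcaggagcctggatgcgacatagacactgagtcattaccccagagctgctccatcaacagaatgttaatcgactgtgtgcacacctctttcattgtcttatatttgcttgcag
Entpd1, which fell with RA, had none of the 4 elements in either window. P2rx4, which had the smallest of the called rises in TG, had 3, and Art2b, which had the largest in TG, had 1. The Art2b window precedes a start inside the longer annotated gene. One element was also found in the Ada window and 1 in each P2rx7 window, and none in those of Nt5e and Cd38. No window of the 7 genes held 2 such elements as a direct repeat spaced by 1, 2 or 5 bases, an arrangement found in 0.164%, 0.174% and 0.0883% of all windows. These matches describe letters within 250 bases only.

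Nt5e (ENSMUSG00000032420, chr9:88327197-88372092 on GRCm38, protein-coding), the adenosine-producing enzyme, had the widest range of FPKM among the 8 genes. In WT it was at 10.9 and 9.73 FPKM without and at 50.4 and 45.7 with RA. Under the KO label it was at 0.605 and 1.24 without and 2.77 and 3.84 with RA. In TG the values were 21.9 and 16.7 without and 61.8 and 57.4 with RA. The 6 groups did not overlap, and their order from the top was TG with RA, WT with RA, TG without, WT without, KO with RA and KO without RA.

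RA raised Nt5e by 2.12 ± 0.19 in WT (adjusted p = 0.00066) and by 1.59 ± 0.19 in TG (adjusted p = 0.00025). Under the KO label the difference was 1.17 ± 0.19, with an adjusted p of 0.071 and an unadjusted p of 0.00017. As a ratio of mean FPKM the step was 4.66-fold in WT, 3.58-fold in KO and 3.09-fold in TG. The ratios within replicates 1 and 2 were 4.62 and 4.70 in WT, 4.58 and 3.09 in KO, and 2.82 and 3.44 in TG. The KO range therefore reached up to nearly the WT ratio and its lower value lay inside the TG range. The interaction of KO and WT was -0.94 ± 0.26 (adjusted p = 0.55), and it shrank to -0.42 with a pseudocount of 0.1 and to -0.33 by voom, so its size depends on the scale at these low levels. What separated the KO-labelled cells was the level: mean FPKM was 11.2-fold lower than WT without RA (-2.58 ± 0.19, adjusted p = 0.00037) and 14.5-fold lower with RA (-3.52 ± 0.19, adjusted p = 4.9e-05). Even with RA, the KO-labelled libraries stayed below both WT libraries without RA.

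TG exceeded WT in Nt5e without RA by 0.83 ± 0.19 (1.87-fold, adjusted p = 0.043). That call was lost with any 1 of the 4 libraries left out (adjusted p from 0.085 to 0.21), with a pseudocount of 0.1 (0.12), without the filter on low values (0.10), with upper-quartile scaling (0.051) and with the compared libraries alone (0.095). With RA the TG excess was 0.31 ± 0.19 (adjusted p = 0.34), although both TG libraries were above both WT libraries.

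Entpd1 (ENSMUSG00000048120, chr19:40612366-40741602, protein-coding), the enzyme that feeds CD73 with AMP, moved the other way. WT libraries had 5.65 and 5.67 FPKM without and 1.62 and 2.31 with RA. KO-labelled libraries had 2.69 and 3.06 without and 1.79 and 1.76 with RA. TG libraries had 7.38 and 7.76 without and 1.46 and 1.54 with RA. Without RA the groups were ordered TG, WT, KO with no overlap, whereas with RA all 6 libraries lay between 1.46 and 2.31, with the WT range spanning that of KO and the TG range below both.

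RA lowered Entpd1 by 1.18 ± 0.11 in WT (to 0.347 of the mean FPKM without RA, adjusted p = 0.00072) and dropped it by 1.78 ± 0.11 in TG (to 0.198, adjusted p = 6e-06). The KO difference was -0.48 ± 0.11 (to 0.617, adjusted p = 0.15, unadjusted p = 0.0018), lower in both libraries than in either library without RA. The larger difference in TG than in WT (-0.60 ± 0.15) had an adjusted p of 0.051, and it passed with upper-quartile scaling (0.048), by voom (0.036) and without WT replicate 1 with RA (0.011). The smaller one in KO (0.70 ± 0.15) had an adjusted p of 0.37. KO was lower than WT without RA by 0.78 ± 0.11 (1.97-fold, adjusted p = 0.013), a call lost with any 1 of the 4 libraries left out (adjusted p from 0.058 to 0.12) and with the compared libraries alone (0.074). With RA the KO and WT difference was -0.09 ± 0.11 (adjusted p = 0.86).

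Set against each other, the 2 enzymes of the chain changed their ratio in each genotype. Nt5e over Entpd1, in FPKM, was 1.93 and 1.72 in WT without and 31.2 and 19.8 with RA. In TG it went from 2.97 and 2.15 to 42.3 and 37.3. In KO it went from 0.225 and 0.406 to 1.55 and 2.18, so that KO-labelled cells with RA had a ratio near that of WT cells without it. Entpd1 RNA thus exceeded Nt5e RNA per length only in the KO-labelled libraries without RA, among the 12.

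**Figure D2:**
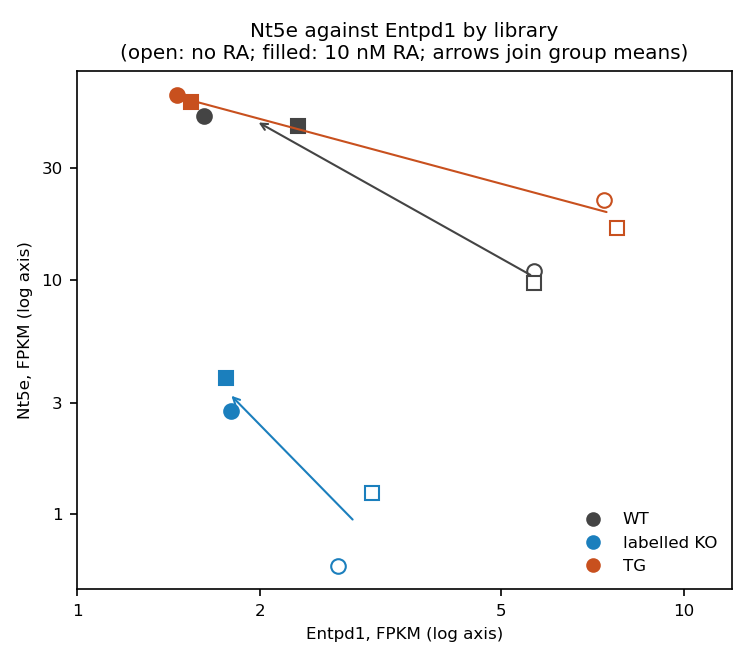
Nt5e against Entpd1 in FPKM, both on log axes, 1 symbol per library (circle replicate 1, square replicate 2) and an arrow from the mean without RA to the mean with RA of each genotype. All 3 arrows point to less Entpd1 and more Nt5e, and the KO arrow lies below the others, from 0.92 to 3.31 FPKM of Nt5e.

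Foxp3, the defining factor of regulatory T cells, is given beside these genes because CD39 and CD73 are known on those cells. It was at 9.95 and 12.3 FPKM in WT without and 50.4 and 57.1 with RA, at 22.6 and 30.6 in KO without and 30.4 and 55.3 with RA, and at 3.66 and 4.29 in TG without and 89.4 and 97.2 with RA. Of 10 regulatory T cell markers 9 were tested. With RA 6 rose and 1 fell in WT (6.67% and 3.47% of all genes tested), and 6 rose and 2 fell in TG (19.7% and 19.4%). In KO 0 passed, where 0.143% of all genes did. Their summed level was 717 to 789 FPKM in WT with RA and 770 to 771 without it. That sum is carried mostly by the highest-expressed markers and does not show the rises of the others. Nt5e was highest where Foxp3 was highest, but KO-labelled libraries without RA had more Foxp3 and less Nt5e than WT libraries without RA, and Entpd1 was highest in TG without RA, where Foxp3 was lowest. The part of such cells in these values was not tested.

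Adora2a (ENSMUSG00000020178, chr10:75316877-75334784, protein-coding), the main adenosine receptor of T cells, passed no test. In WT it was at 4.37 and 5.37 FPKM without and 4.70 and 6.34 with RA. KO had 6.17 and 5.48 without and 7.06 and 6.46 with RA. TG had 4.05 and 3.41 without and 4.45 and 2.58 with RA. The 4 TG libraries and the 4 KO libraries did not overlap, and KO was above WT at each dose while TG was below it. The RA differences were 0.15 ± 0.20 in WT, 0.19 ± 0.20 in KO and -0.10 ± 0.20 in TG, with adjusted p of 0.71, 0.80 and 0.74. TG against WT with RA was -0.55 ± 0.20 (adjusted p = 0.12), which passed without TG replicate 1 (-0.85, adjusted p = 0.038).

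Ada (ENSMUSG00000017697, chr2:163726584-163750239, minus strand, protein-coding), which clears adenosine, was the steadiest of the highly expressed members. WT had 15.7 and 15.7 FPKM without and 14 and 16.1 with RA, and KO had 15.1 and 13.4 without and 13.7 and 13.8 with RA. TG had 15.8 and 16.4 without RA, the highest group, and 11.5 and 11.7 with RA, the lowest. WT without and with RA overlapped, as did KO without and with RA. In TG, RA lowered Ada by 0.44 ± 0.07 (to 0.721 of the mean without RA, adjusted p = 0.0017), beside -0.06 ± 0.07 in WT and -0.04 ± 0.07 in KO. The test of the TG and WT difference in response gave -0.38 ± 0.10 (adjusted p = 0.064), and passed without WT replicate 1 with RA (-0.47, adjusted p = 0.030). With RA, Ada was 0.34 ± 0.07 lower in TG than in WT (1.29-fold, adjusted p = 0.018), which was lost without WT replicate 2, TG replicate 1 or TG replicate 2 with RA (adjusted p 0.096 to 0.10) and with the compared libraries alone (0.10).

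P2rx7 (ENSMUSG00000029468, chr5:122643911-122691432, protein-coding), the ATP-gated channel that ART2.2 modifies, was ordered by genotype opposite to Nt5e. WT had 0.757 and 0.898 FPKM without and 0.908 and 1.05 with RA. KO had 1.79 and 2.78 without and 1.95 and 2.58 with RA, and TG had 0.153 and 0.144 without and 0.668 and 0.382 with RA. At each dose KO was above WT and WT above TG with no overlap, and only the 2 KO groups overlapped each other.

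These levels rest on few reads in TG, where P2rx7 had 18 and 22 reads without and 67 and 58 with RA. WT without RA had 102 and 95 reads and KO 185 and 308. Over both libraries the depth-scaled ratio of KO to WT without RA was 2.81 (95% interval 2.38 to 3.34), that of WT to TG was 5.53 (3.92 to 7.98), and that of TG with to TG without RA was 3.35 (2.33 to 4.91). These intervals are exact binomial (Clopper-Pearson) and cover counting error only, since reads are not independent molecules. Outside the KO label P2rx7 reached 1 FPKM only in WT replicate 2 with RA (1.05). It was thus tested only through KO, and its test of KO minus WT is not given. By limma on log2(FPKM + 1) neither TG comparison passed: -0.67 ± 0.17 for TG minus WT without RA (adjusted p = 0.069) and 0.40 ± 0.17 for RA in TG (0.095). By voom on reads both passed, with -2.44 ± 0.51 (adjusted p = 0.023) and 1.68 ± 0.53 (0.029). With a pseudocount of 0.1 they passed too (-1.90, adjusted p = 0.014, and 1.29, adjusted p = 0.0096). In WT and KO the RA differences were 0.12 ± 0.17 and -0.00 ± 0.17 (adjusted p = 0.73 and 1).

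P2rx4 (ENSMUSG00000029470, chr5:122707544-122729738, protein-coding) encodes another ATP-gated channel and begins 16112 bases after the end of P2rx7 on the same strand. It was at 1.60 and 1.66 FPKM in WT without and 1.90 and 2.11 with RA. KO had 1.61 and 1.76 without and 2.12 and 2.02 with RA, and TG had 1.44 and 1.60 without and 2.31 and 2.25 with RA. All 6 libraries with RA were above all 6 without it, and at each dose KO and WT overlapped. The rise was 0.38 ± 0.08 in TG (1.5-fold, adjusted p = 0.0061), while WT and KO had 0.19 ± 0.08 each (1.23-fold, adjusted p = 0.18 and 0.44). No genotype difference passed, the largest being 0.13 ± 0.08 for TG minus WT with RA (adjusted p = 0.36). The neighbouring channel genes thus had different patterns. P2rx4 separated by RA in each genotype, and P2rx7 by genotype label at each dose and by RA in WT and TG. Of these separations, limma on log2(FPKM + 1) called only the P2rx4 rise in TG.

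Art2b (ENSMUSG00000030651, chr7:101576970-101585600, minus strand, protein-coding), the ADP-ribosyltransferase, had the largest RA difference of the 8 genes in TG, while on log2(FPKM + 1) Nt5e had it in WT and KO. By ratio of mean FPKM, the rise in WT was larger for Art2b, at 6.61-fold against 4.66-fold for Nt5e. Art2b had 1.77 and 0.858 FPKM in WT without and 11.0 and 6.34 with RA. KO had 0.347 and 0.210 without and 0.686 and 0.457 with RA. TG had 0.161 and 0.0415 without RA, the lowest group, and 14.3 and 9.17 with RA, the highest. WT with RA and TG with RA overlapped, and no other neighbours in the order of levels did.

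In TG without RA the Art2b values stood on 9 and 3 reads, against 677 and 659 with RA. The depth-scaled ratio was 88.4 (95% interval 46.3 to 194) in replicate 1, 221 (75.2 to 1070) in replicate 2 and 119 (68.1 to 232) over both. In WT the ratio over both libraries was 6.38 (5.37 to 7.62), on 113 and 43 reads without and 530 and 292 with it. In KO it was 2.07 (1.30 to 3.38), on 17 and 11 reads without and 35 and 23 with it. The intervals of the 3 genotypes thus lay apart in counting error, with the spread between libraries on top of it.

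RA raised Art2b by 2.05 ± 0.28 in WT (adjusted p = 0.0038), a call lost with the 4 WT libraries alone (adjusted p = 0.067), and by 3.50 ± 0.28 in TG (adjusted p = 3.2e-05). KO had 0.30 ± 0.28 (adjusted p = 0.77), which became 1.04 by voom (adjusted p = 0.80). The interaction was 1.45 ± 0.40 for TG minus WT (adjusted p = 0.067), 3.25 with a pseudocount of 0.1 (0.023) and 4.31 by voom (0.076). That for KO minus WT was -1.76 ± 0.40 (adjusted p = 0.38). With RA, KO was lower than WT by 2.59 ± 0.28 (15.2-fold, adjusted p = 0.0047), a call lost with the compared libraries alone (0.099). Without RA it was 4.72-fold lower in mean FPKM (-0.83 ± 0.28, adjusted p = 0.21). TG without RA was 13-fold lower than WT in mean FPKM (-1.05 ± 0.28, adjusted p = 0.082), which passed with a pseudocount of 0.1 (-2.80, adjusted p = 0.015).

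Reads of Art2b could be shared with few other genes. Of its 2811 exon windows of 100 bases, 28 occur also in the pseudogene Art2a-ps (0.996%), and Art2a-ps itself was listed at 0 in 10 of 12 libraries and at 0.0894 FPKM or less in the others. P2rx7 shares 0.334% of its windows with Mir8115, which lies within it, and the other 6 members share none. Entpd1 and Cd38 overlap annotated genes (AC166063.1, Gm16027 and Gm8783, and Gm16014 and the antisense Gm16015), and the strand setting of the counting is not given in the sources used here.

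Cd38 (ENSMUSG00000029084, chr5:43868553-43912375, protein-coding), the NAD-consuming ectoenzyme, was highest by far in TG cells with RA. TG had 1.42 and 1.41 FPKM without and 13.9 and 13.9 with RA. WT had 1.34 and 2.73 without and 3.33 and 7.26 with RA, and KO had 1.83 and 2.71 without and 2.25 and 4.09 with RA. Only TG with RA stood clear of every other group, since each of the other 5 overlapped its neighbour in the order of levels.

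RA raised Cd38 by 2.62 ± 0.34 in TG (9.80-fold, adjusted p = 0.00043). In WT the difference was 1.02 ± 0.34 (2.60-fold, adjusted p = 0.097) and in KO 0.33 ± 0.34 (1.40-fold, adjusted p = 0.79). The WT and the KO libraries split by replicate number, replicate 2 being higher at each dose. The differences within the numbers were 0.89 and 1.15 in WT, 0.20 and 0.46 in KO, and 2.62 and 2.62 in TG. TG exceeded WT with RA by 1.31 ± 0.34 (adjusted p = 0.040), a call lost without WT replicate 1 (0.16), TG replicate 1 (0.15) or TG replicate 2 (0.16) with RA, with a pseudocount of 0.1 (0.067), without the filter (0.093) and with the compared libraries alone (0.10). The TG and WT difference in response was 1.61 ± 0.48 (adjusted p = 0.087), and it was 2.07 without WT replicate 2 with RA. With replicate number as a block in the model, this difference in response passed, as did the Cd38 rise with RA in WT.

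CD38 is also made by B cells, so their markers stand beside it. The 10 B cell markers summed to 29.8 and 103 FPKM in WT without RA, 57.3 and 132 with RA, 31.3 and 53.2 in KO without and 37.6 and 67.4 with RA. In TG the sum was 32.1 and 34.8 without and 111 and 110 with RA, of which Ighm was 27.5 and 27.6 without and 101 and 95.9 with RA (1.80 ± 0.48, adjusted p = 0.017). Ighm was the 1 of 8 tested B cell markers that passed with RA in TG, where 39.1% of all genes tested passed. In WT and in KO the sum was higher in replicate 2 at each dose, as Cd38 was, and the part of B cells in the Cd38 levels was not tested. No B cell marker was at 0 in both libraries of any group.

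**Figure D3:**
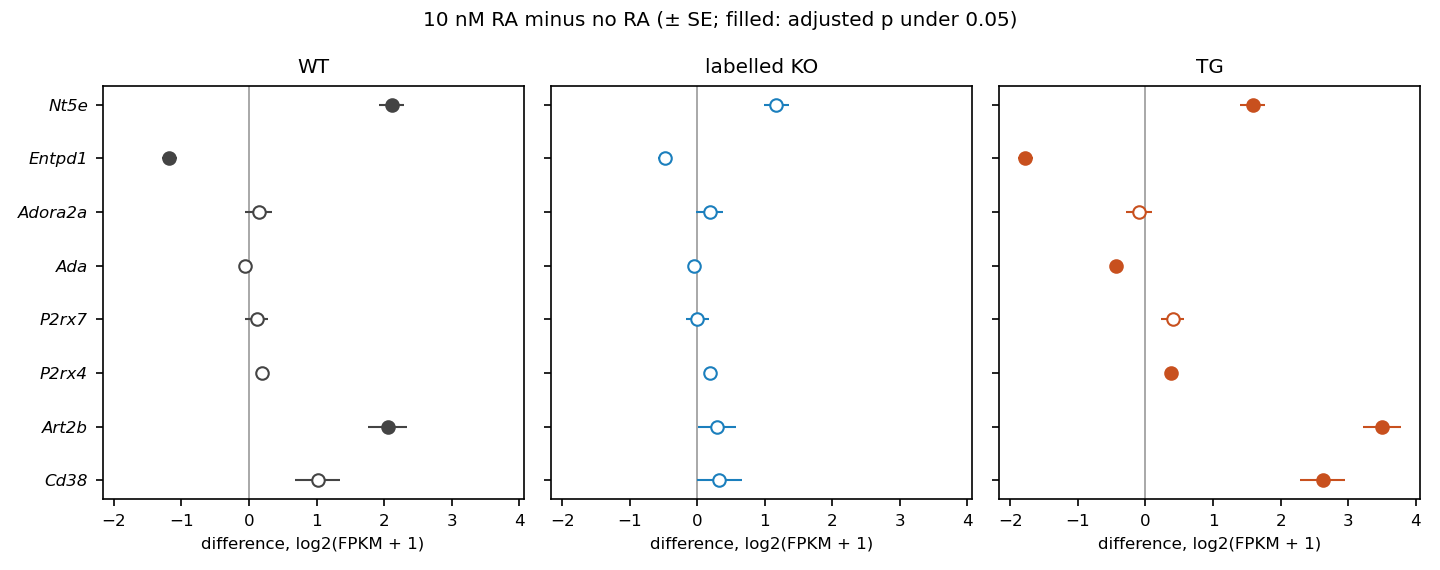
RA minus no RA for the 8 genes in WT, the KO-labelled libraries and TG, as differences in log2(FPKM + 1) with bars of 1 standard error, filled where the adjusted p is under 0.05. WT has 3 filled points, KO 0 and TG 6, and Nt5e lies at 2.12, 1.17 and 1.59.

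**Figure D4:**
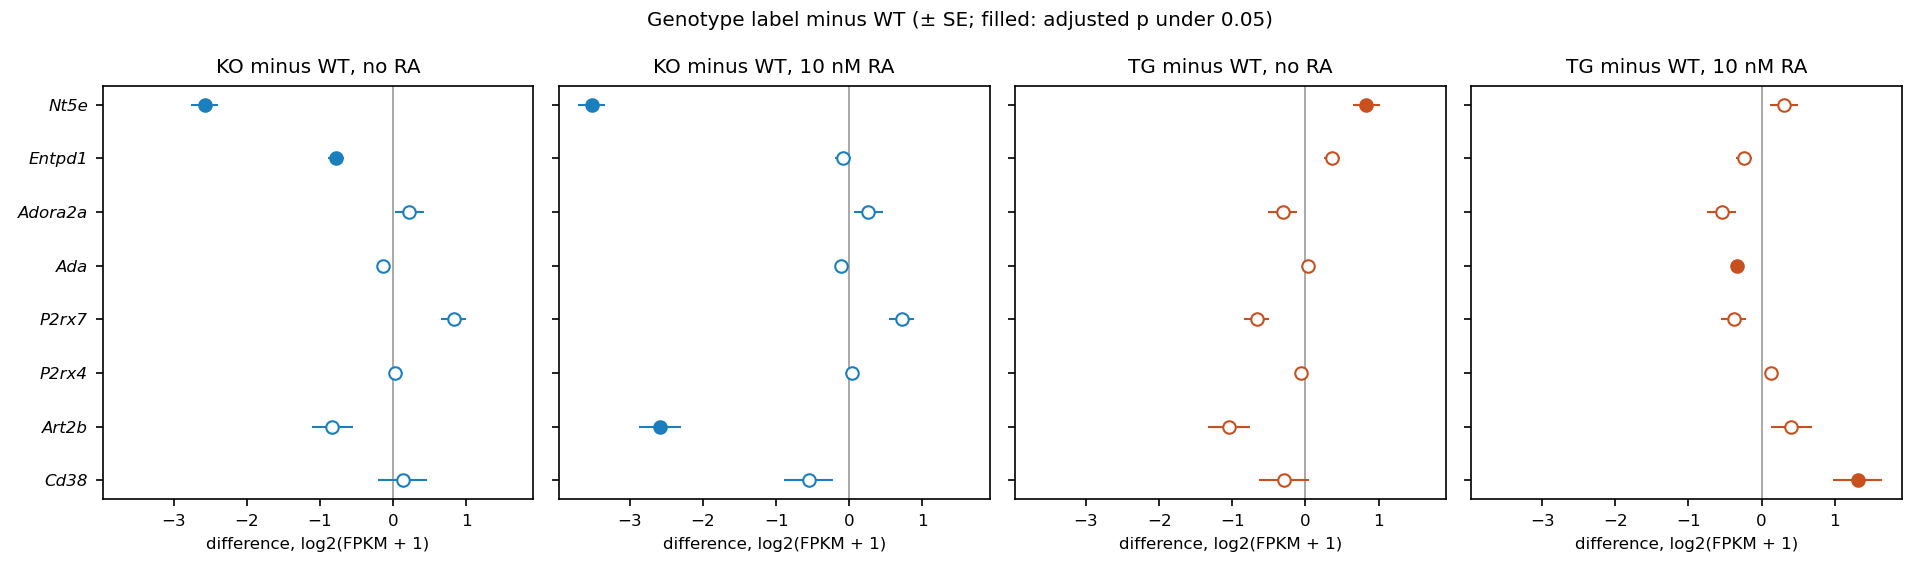
KO minus WT and TG minus WT at each dose for the 8 genes, as differences in log2(FPKM + 1) with bars of 1 standard error, filled where the adjusted p is under 0.05. Nt5e is lowest in both KO panels, at -2.58 and -3.52, and P2rx7 is above 0 in both KO panels and below 0 in both TG panels. P2rx7 was tested only through the KO label.

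Separation of libraries was also counted without a test. The 2 groups did not overlap for 6 of 8 members with RA in WT (53.8% of all genes tested), 5 of 8 in KO (42.3%) and 7 of 8 in TG (71.1%). For KO against WT it was 6 of 8 without RA (47.7%) and 5 of 8 with RA (37.2%), and for TG against WT 7 of 8 at each dose (48.1% without and 54.4% with RA). Groups of 2 often separate, so each count stands beside the share of all genes in which they do. The 4 members Nt5e, P2rx4 and Art2b upward and Entpd1 downward separated with RA in all 3 genotypes. The share of all genes that did so was not counted, so this count has no background beside it.

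Per length of exon, the order of the genes also changed. In WT without RA, Ada had the highest mean (15.7 FPKM), followed by Nt5e (10.3), Entpd1 (5.66), Adora2a (4.87), Cd38 (2.04), P2rx4 (1.63), Art2b (1.31) and P2rx7 (0.828). In TG with RA the order was Nt5e (59.6), Cd38 (13.9), Art2b (11.7), Ada (11.6), Adora2a (3.52), P2rx4 (2.28), Entpd1 (1.5) and P2rx7 (0.525). In KO without RA, Nt5e had fallen to the seventh place of 8, at 0.924 FPKM, with Art2b last at 0.279.

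The wider families of the 8 genes were listed by family, with earlier results of these data known. Their counts with RA stand beside 6.67% of all genes tested higher and 3.47% lower in WT, and 19.7% higher and 19.4% lower in TG. Of 15 ectonucleotidases 9 were tested. With RA in WT and in TG, 2 rose and 1 fell, the third beside Nt5e and Entpd1 being Enpp4, which encodes a phosphodiesterase of the nucleotide pyrophosphatase family. Enpp4 went from 9.25 and 9.14 to 13.6 and 13.2 FPKM in WT (0.50 ± 0.10, adjusted p = 0.018) and from 5.42 and 5.73 to 16.5 and 14.3 in TG (1.32 ± 0.10, adjusted p = 2.4e-05), and the responses differed (0.82 ± 0.14, adjusted p = 0.011). Acpp, an acid phosphatase that can also make adenosine from AMP, was higher under the KO label: 7.10 and 6.93 FPKM against 2.96 and 2.64 in WT without RA (1.08 ± 0.14, adjusted p = 0.011), and 8.15 and 7.30 against 2.88 and 2.71 with RA (1.2 ± 0.14, adjusted p = 0.0064). It was thus high where Nt5e was low, at a level above that of Nt5e in the same libraries.

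Of the other receptors, Adora2b, P2ry2 and P2ry10 were expressed high enough to test. Adora2b, a lower-affinity adenosine receptor, was at 1.16 and 1.17 FPKM in TG with RA against 0.287 and 0.599 in WT with RA. It reached 1 FPKM in those 2 TG libraries alone and was tested only because of them, so its test is not given. P2ry10, a receptor for lysophospholipids despite its name, fell in TG with RA from 22.3 and 22.5 to 10.2 and 8.66 (-1.17 ± 0.13, adjusted p = 0.00017). P2ry2, a receptor for ATP and UTP, was at 1.30 and 1.56 FPKM in TG without and at 0.364 and 0.271 with RA. Outside TG without RA it reached 1 FPKM only in WT replicate 2 without RA (1.04). It was thus tested only through TG without RA, and its test is not given. P2ry10 did not pass in WT or KO with RA, and its response differed between TG and WT (-1.12 ± 0.18, adjusted p = 0.0077). Without RA, P2ry10 was higher in TG than in WT (0.75 ± 0.13, adjusted p = 0.017).

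Of 6 channel and transport genes for nucleotide release, 4 were tested. Panx1, the pannexin channel through which T cells release ATP, rose from 10.7 and 10.5 to 12.8 and 13.4 FPKM in WT (0.28 ± 0.06, adjusted p = 0.026) and from 7.76 and 7.05 to 19.1 and 18 in TG (1.22 ± 0.06, adjusted p = 2.2e-06), with a difference in response of 0.93 ± 0.09 (adjusted p = 0.00054). Gja1, which encodes connexin 43, fell in TG from 3.18 and 3.43 to 1.05 and 1.06 (-1.06 ± 0.09, adjusted p = 4.9e-05). Lrrc8a, a subunit of volume-regulated channels, rose there by 0.32 ± 0.08 (adjusted p = 0.013).

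Adenosine transport and purine salvage had 17 of 21 genes tested. With RA 2 rose and 0 fell in WT, both of them equilibrative nucleoside transporters: Slc29a3 by 0.38 ± 0.07 (adjusted p = 0.014) and Slc29a1 by 0.32 ± 0.08 (adjusted p = 0.045). In TG 5 rose and 5 fell, led by Slc29a3 (1.00 ± 0.07, adjusted p = 1.7e-05), the nucleotidase Nt5c (-0.73 ± 0.09, adjusted p = 0.00032) and the adenine salvage enzyme Aprt (-0.56 ± 0.08, adjusted p = 0.00087). Pnp, which acts on inosine after Ada, was the 1 gene that passed for KO against WT with RA (28.9 and 31.2 against 21.9 and 23.5 FPKM, 0.39 ± 0.06, adjusted p = 0.019). The list's median with RA was 0.13 in WT and 0.06 in TG, beside 0.02 and -0.02 over all genes tested.

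Of 10 ectotransferases and NAD glycohydrolases 4 were tested, Art2b, Art4, Cd38 and Bst1. Art2b, Art4 and Cd38 rose with RA in TG, 1 of the 4 passed in WT and 0 in KO, where 0.143% of all genes tested passed. Bst1, the relative of Cd38 also called CD157, was at 0 and 0.0354 FPKM in TG without and at 1.15 and 1.02 with RA, and at 0.167 or below in all WT and KO libraries. It entered the tested genes through TG with RA alone and so had to differ there, and its test is not given. Art4 went from 0.825 and 0.591 to 2.74 and 2.06 in TG (0.99 ± 0.15, adjusted p = 0.0012).

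All 16 listed genes of the PARP family, many of which encode enzymes that ADP-ribosylate proteins inside the cell, were tested. In WT with RA 3 rose (background 6.67%) and 1 fell (3.47%), and in TG 5 rose (19.7%) and 3 fell (19.4%), the last about the share over all genes. Parp9 rose by 0.58 ± 0.10 in WT (adjusted p = 0.0085) and 1.15 ± 0.10 in TG (adjusted p = 3.8e-05), and Parp10 by 0.55 ± 0.08 (0.0062) and 0.68 ± 0.08 (0.00036). Parp4 went from 6.34 and 4.93 to 16.6 and 17.7 FPKM in TG (1.46 ± 0.12, adjusted p = 2.9e-05), beyond its WT response (interaction 0.98 ± 0.16, adjusted p = 0.0092), while Tnks2 fell in WT by 0.29 ± 0.05 (adjusted p = 0.0072). Parp3 was lower in KO than in WT without RA (5.22 and 6.49 against 10.6 and 12.2 FPKM, -0.85 ± 0.10, adjusted p = 0.0065) and with RA (-0.78 ± 0.10, adjusted p = 0.0088), and higher in TG without RA (0.53 ± 0.10, adjusted p = 0.025).

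Of 8 ADP-ribose hydrolases 6 were tested, and with RA 0 passed in WT and 2 fell in TG, Adprm by 0.37 ± 0.08 (adjusted p = 0.0051) and Adprhl2 by 0.16 ± 0.05 (adjusted p = 0.032). Of 11 NAD synthesis genes 9 were tested. Qprt, which makes NAD precursors from tryptophan breakdown, rose by 0.69 ± 0.12 in WT (adjusted p = 0.011) and by 1.10 ± 0.12 in TG (adjusted p = 0.00021), where Nmrk1 (0.66 ± 0.10, adjusted p = 0.0012) and Nadsyn1 (0.30 ± 0.06, adjusted p = 0.0043) rose as well.

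Of 20 genes of the cAMP response through which the product of Adora2a acts, 18 were tested. With RA 1 rose and 1 fell in WT (10.1% of all genes tested passed), and 5 rose and 6 fell in TG (39.1%), so the WT count was about that over all genes. Crem, a cAMP-responsive transcription factor, fell from 9 and 8.23 to 4.35 and 4.52 FPKM in WT (-0.82 ± 0.10, adjusted p = 0.0019) and from 15.1 and 15.7 to 3.18 and 2.50 in TG (-2.10 ± 0.10, adjusted p = 1.3e-06). In KO it was at 5.2 and 4.79 without RA, below WT (-0.68 ± 0.10, adjusted p = 0.014), and at 4.15 and 3.58 with RA. Pde4a, which degrades cAMP, went from 0.483 and 0.399 to 3.27 and 4.20 in TG. It is 1 of the 5 counted as higher there, but it was at 0.81 FPKM or below in the 10 other libraries and was tested only through TG with RA, so its test is not given. Adcy7, which makes cAMP, rose by 0.53 ± 0.07 in WT (adjusted p = 0.0022) and 0.80 ± 0.07 in TG (adjusted p = 3.2e-05). In the 11 lists, members included, 0 genes passed with RA under the KO label. As only 0.143% of all genes tested passed there, this is about the share over all genes.

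**Figure D5:**
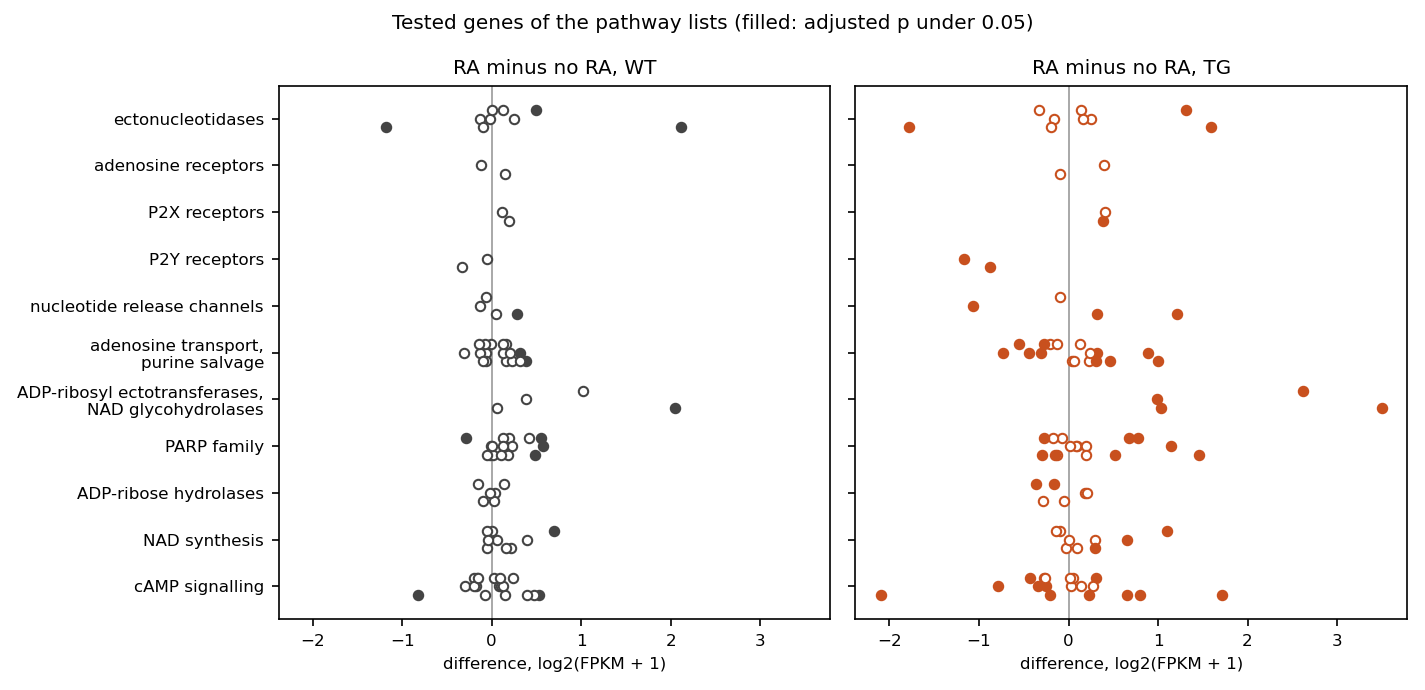
RA minus no RA in WT (left) and TG (right) for every tested gene of the 11 lists, 1 point per gene, as differences in log2(FPKM + 1), filled where the adjusted p is under 0.05. The row of ADP-ribosyl ectotransferases and NAD glycohydrolases has 4 filled points in TG and 1 in WT, and that of Bst1 in TG was fixed by the filter on low values. Pde4a and P2ry2 were also tested only through a TG group.

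The genes whose levels were most like each member were ranked by Pearson correlation of log2(FPKM + 1) over the 12 libraries, which share their cultures, depth and the 6 groups, among 1636 or 1637 genes with a range of at least 1. Entpd1 was most like Bpnt1 (r = 0.990), Mfsd2a and Map3k20 (0.989 each), and Cd38 like Unc93b1 (0.991), Zbtb32 (0.990) and Olfm2 (0.980). Art2b was most like Stk39 (0.957), Plekha7 (0.931) and Farp1 (0.923). Nt5e was most like Trim30d (0.944), Dnajb13 (0.943) and Trim34a (0.935). P2rx7 was most like Trbv24 (0.949), Pyroxd2 (0.924) and Lad1 (0.923), P2rx4 like Fdxr (0.952), Mmd (0.949) and Hsd11b1 (0.945), Ada like Map3k8 (0.939), Snx8 (0.888) and Fbl (0.886), and Adora2a like Pou2af1 (0.908), Tlr1 (0.855) and Spry1 (0.853). Among the members themselves, the closest pairs were P2rx4 with Cd38 (0.863) and Art2b with Cd38 (0.798), and the most opposed were Entpd1 with P2rx4 (-0.868), Ada with P2rx4 (-0.752), Ada with Cd38 (-0.75) and Nt5e with P2rx7 (-0.724).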

How the data were processed

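The 12 RNA-seq libraries of cultured mouse CD4 T cells (2 in each of 6 groups) were analysed from 1 table of FPKM per gene, which the authors made and deposited. Per the labels' protocols the kit kept strand and single reads were sequenced. Tools named in the submitters' processing notes, without their roles, are DESeq2, HTSeq 0.6.1, STAR and Trimmomatic 0.32, with the builds mm10 and GRCm38.p5. Annotation release and strand setting: not given in the sources used here. GENCODE M21 (GRCm38) supplied gene positions and exon lengths. FPKM times exon length steps by whole reads, which gave each library's depth and reads. Of values up to 20 reads, 95.3 to 95.9% fell within 0.02 of a whole one. The recovered reads came to 1.06 to 1.07 times the depth, for which the cause was not tested.

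The 11922 genes at 1 FPKM or more in 2 or more libraries were tested with limma 3.58.1 in R 4.3.3 (eBayes with trend, two-sided) on log2(FPKM + 1), with 6 group means, 6 residual and 2.51 prior degrees of freedom, 9 comparisons and Benjamini-Hochberg adjustment within each. The script was tested on simulated data. Alternatives were a pseudocount of 0.1, no filter, upper-quartile scaling, the compared libraries alone, a replicate block, limma voom on reads (11910 genes) and leaving out each library. Members and lists were chosen with earlier results of these data known. The text names all members, up to 3 called genes of smallest p per list and comparison, and the 3 genes most like each member. Values of 1 listed marker are not reported here.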

Additional observations from a re-analysis of the deposited data

How the results depend on the processing

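The members called did not change in number with RA in TG under any alternative by more than 1.5 times, nor in WT, nor for KO minus WT interactions and RA in KO, which stayed at 0. For KO minus WT without RA the 2 members called became 4 with the replicate block, 1 with the compared libraries alone and 1 with any library left out (range 1 to 1). With RA the 2 became 1 with the compared libraries alone. For TG minus WT without RA the 1 called became 2 with a pseudocount of 0.1, 0 without the filter, 0 with upper-quartile scaling, 2 with the replicate block, 3 by voom, 0 with the compared libraries alone and 0 to 0 with a library left out. With RA the 2 became 1 with a pseudocount of 0.1, 1 without the filter, 0 with the compared libraries alone and 0 to 2 with a library left out. The 0 called for the TG minus WT interaction became 1 by voom, 1 with a pseudocount of 0.1, 3 with the replicate block, 1 with upper-quartile scaling and 0 to 3 with a library left out. The cause of these changes was not tested, except that comparing fewer libraries or leaving one out leaves fewer degrees of freedom, and a lone library was assumed to vary like the other groups. Over single members, 776 values under alternatives held 700 with the same direction and side of the threshold, 25 that lost and 23 that gained a call, and 28 with the other sign, each of a difference that had not passed. With libraries left out these ranged from -0.26 to 0.085 for Entpd1 in KO minus WT with RA. For Adora2a they ranged from -0.038 to 0.33 with RA in WT, -0.40 to 0.21 in TG, -0.14 to 0.22 for the KO interaction and -0.54 to 0.062 for the TG interaction. For Ada they ranged from -0.15 to 0.034 with RA in WT, -0.13 to 0.036 in KO and -0.078 to 0.11 for the KO interaction. For P2rx7 they ranged from -0.22 to 0.22 with RA in KO (0.005 with a pseudocount of 0.1) and -0.34 to 0.11 for the KO interaction. For P2rx4 they ranged from -0.009 to 0.07 in KO minus WT without RA, -0.018 to 0.083 with RA and -0.048 to 0.053 for the KO interaction (-0.003 by voom). For Cd38 without RA they ranged from -0.20 to 0.47 in KO minus WT and from -0.63 to 0.043 in TG minus WT. The labels do not say that replicate numbers pair libraries, and the deviations of same-numbered libraries correlated at 0.004 to 0.327 over the 15 pairs of groups, at 0.327 in WT, 0.32 in KO and 0.147 in TG between doses. Same-numbered libraries of the 2 doses matched in sex in TG, and in Cd74 level in WT and KO. Whether they share animals or a batch was not tested. The replicate block added Cd38 (adjusted p = 0.024) with RA in WT. In KO minus WT without RA it added Art2b (0.035) and P2rx7, which was tested only through the KO label. In TG minus WT without RA it added Art2b (0.011). In the TG minus WT interaction it added Art2b (0.0073), Cd38 (0.019) and Entpd1 (0.029). Depth limits Art2b and P2rx7 in TG without RA, at 3 to 22 reads a library.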

Other observations

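The genes around each member were counted after their values had been seen. Within 5 Mb of Art2b, 13 of 91 tested genes differed between the KO-labelled and WT libraries without RA (14.3%, against 1.74% of all genes tested), 8 higher and 5 lower, and 14 of 91 with RA (15.4%, against 0.881%), 6 higher and 8 lower. They include Ucp2, Trim30d, Dnajb13 and, with RA, Trim34a. Trim30d, Dnajb13 and Trim34a, the genes most like Nt5e over the libraries, lie 1.08 to 2.89 Mb from Art2b on chromosome 7, while Nt5e lies on chromosome 9. For the TG label 1 of the 91 differed from WT without RA (1.1%, against 4.31% of all genes) and 8 with RA (8.79%, against 11.5%). Within 5 Mb of Nt5e, 2 of 29 differed between KO and WT at each dose (6.9%), Fam46a and Morf4l1, both lower, and 3 of 29 between TG and WT at each dose (10.3%). Within 5 Mb of Entpd1, Adora2a, Ada, P2rx7, P2rx4 and Cd38, 0 genes differed between KO and WT without RA, and 0 to 3 of 13 to 95 between TG and WT without RA. With RA, KO and WT differed in 1 of 70 genes near Entpd1 (1.43%) and in 0 near the others. TG and WT with RA differed in 12 of 70 near Entpd1 (17.1%, against 11.5% of all genes). That count was 8 of 68 near Ada (11.8%), 11 of 95 near P2rx7 and near P2rx4 (11.6%), 6 of 87 near Adora2a (6.9%) and 1 of 13 near Cd38 (7.69%). Whether the KO differences around Art2b belong to the chromosome there or to the genotype was not tested.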
